A study of Mus musculus with 11 samples.

Results

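The genes described here are 10 regulators of bone formation and calcification, measured in whole aortic valves of wild type mice. They were taken by symbol from the deposited table of raw counts, which holds 46983 genes, and all 10 were present and passed the filter on low counts that left 19366 genes for testing. By their usual roles, 4 drive or mark mineralization (Runx2, Sp7, Alpl and Ibsp), 5 restrain it (Mgp, Enpp1, Abcc6, Tnfrsf11b and Spp1), and 1, Comp, belongs to the matrix of cartilage. Valves were taken 48 hours after a wire had been used in the living animal to damage the endothelium of the valve, or after sham surgery. The groups were young sham (3 mice), young injured (3 mice), aging sham (3 mice) and aging injured (2 mice), with young mice of 3 to 4 months and aging mice of 16 to 18 months. All groups were wild type, every mouse had surgery, and each library came from 1 mouse. Sex was inferred from expression, as male where the sum of Y-linked Ddx3y, Kdm5d, Uty and Eif2s3y exceeded Xist and female otherwise. By this rule males and females numbered 2 and 1 in young sham, 1 and 2 in young injured, 1 and 2 in aging sham, and 0 and 2 in aging injured valves.

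Mineral forms where phosphate is set free beside collagen. Alkaline phosphatase, the product of Alpl, splits the inhibitor pyrophosphate, while ENPP1 makes pyrophosphate from ATP and ABCC6 promotes ATP release, mainly in the liver. RUNX2 and SP7 (osterix) are the transcription factors of the osteoblast lineage, bone sialoprotein (Ibsp) and osteopontin (Spp1) are acidic phosphoproteins of bone matrix, and matrix Gla protein (Mgp) keeps soft tissue free of mineral once vitamin K has carboxylated it. Osteoprotegerin (Tnfrsf11b) is the decoy receptor of RANK ligand, and COMP is a pentameric protein that binds collagen. In calcific aortic valve disease, valve interstitial cells take on features of osteoblasts, and some of these genes serve as markers of that change.

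Total counts lay between 27124000 and 36353474 per library. Levels are given as CPM, counts divided by library size and scaled to a common total, with edgeR's TMM factors. Young sham 1 and both aging injured libraries, whose label numbers follow those of the other 8, held counts for 18641 to 19015 genes, against 20411 to 22533 in the others. No aging sham library belongs to that set, so in aging valves injury and the set cannot be told apart except by a term that rests on young sham 1 against the other young sham libraries. Valve interstitial and fibroblast markers summed to 16552 to 32142 CPM over the libraries, and endothelial markers to 586 to 1562 CPM. Cardiomyocyte markers were also present in every library, at 7381 to 36311 CPM. In whole tissue, fewer cells of a type and less RNA per cell cannot be told apart.

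Ibsp and Spp1 are shown by sequence because they gave the largest differences with injury in young valves among members counted in every library, in opposite directions, and are neighbours on chromosome 5 (mm10, plus strand). Ibsp lies at chr5:104299171-104311469 and Spp1 at chr5:104435118-104441050, with 123.6 kb and 1 protein-coding gene, Mepe, between them. Below are bases before the start of each gene, from RefSeq (GRCm38.p6), 5′ to 3′ on the plus strand, covering chr5:104299037-104299170 for Ibsp and chr5:104434861-104435110 for Spp1. Capitals mark matches to TATAAA, to TGTGGT (a RUNX core, here as its reverse complement) and to CCAAT (likewise reversed).
Ibsp: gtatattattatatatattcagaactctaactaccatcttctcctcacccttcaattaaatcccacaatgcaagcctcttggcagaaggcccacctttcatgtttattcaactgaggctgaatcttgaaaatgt
Spp1: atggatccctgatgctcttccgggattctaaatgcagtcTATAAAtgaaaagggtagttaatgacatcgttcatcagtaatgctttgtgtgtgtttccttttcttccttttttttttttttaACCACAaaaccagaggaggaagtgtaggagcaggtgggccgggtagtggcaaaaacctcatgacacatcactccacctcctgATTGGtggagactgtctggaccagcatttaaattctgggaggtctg
The Spp1 stretch holds 1 match to each of these motifs, 211, 128 and 46 bases before the RefSeq start site in that order. Searched on both strands, TGTGGT was found in 14.0% of the 32851 RefSeq mouse promoter windows of 250 bases, CCAAT in 33.9% and TATAAA in 12.4%. The Ibsp stretch leaves out 116 bases that RefSeq places before its start site but the deposited gene already includes, and those bases hold 1 match to CCAAT and 1 to TATAAA. The Ibsp window of 250 bases thus holds both of these motifs and no TGTGGT. A match describes letters and not a bound site. Of the 10 genes, 5 had a RefSeq promoter entry (Alpl, Ibsp, Spp1, Enpp1 and Runx2), and TGTGGT also occurred in those of Enpp1 and Runx2.

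Levels of different genes can be compared per transcript length, in the RPKM values that the authors deposited for 13526 genes, 9 of these 10 among them. Mgp stood at a median of 2494 RPKM over the 11 libraries, with a range of 1724 to 3404, which made it the gene with rank 3 by median. Comp followed at 457 RPKM (range 186 to 616, rank 47) and Spp1 at 75.8 RPKM (32.3 to 242, rank 588). Both are secreted matrix proteins, as Mgp is. Tnfrsf11b stood at 24.8 RPKM (17.3 to 40.7), Enpp1 at 10.9 RPKM (8.14 to 13.5) and Alpl at 6.83 RPKM (3.49 to 19.1). The osteoblast genes were the lowest, with medians of 1.38 RPKM for Ibsp (0.346 to 5.41), 0.990 RPKM for Runx2 (0.763 to 1.44) and 0.733 RPKM for Sp7 (0.273 to 2.72). Their ranges overlapped one another, as did those of Enpp1 and Alpl, whereas the lowest Mgp value lay above the highest Comp value. Abcc6 has no RPKM value.

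**Figure D1:**
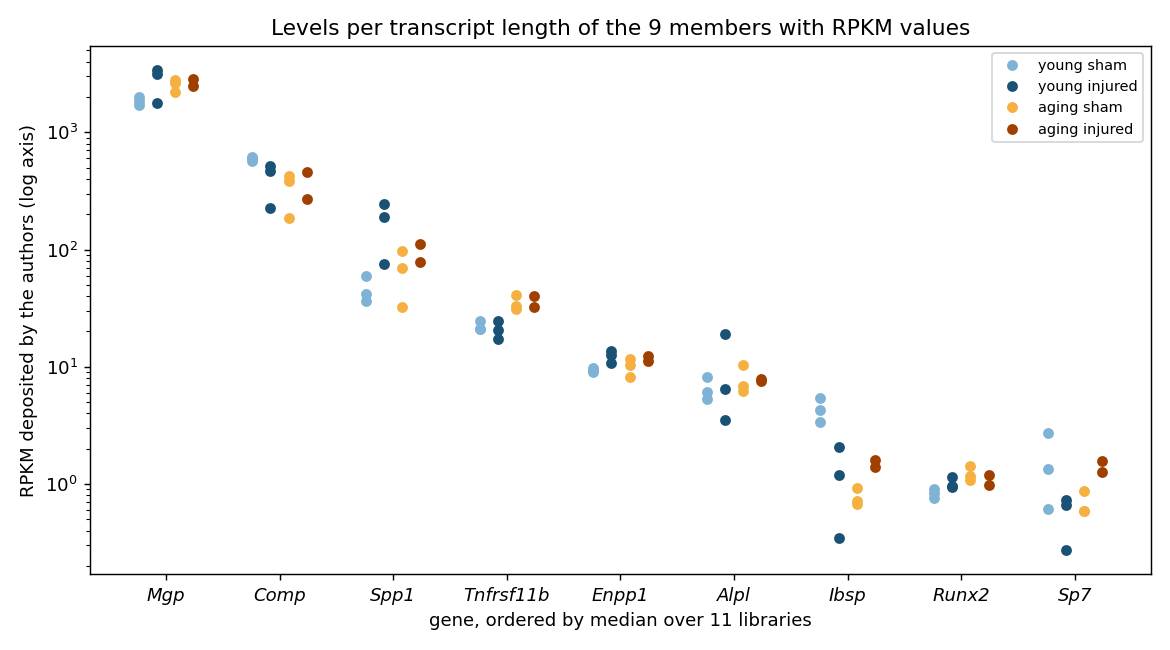
Deposited RPKM of 9 genes (log axis) in each library, coloured by group, with genes ordered by their median over 11 libraries. Mgp lies between 1724 and 3404 in every library, and Ibsp, Runx2 and Sp7 lie below 5.41.

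The first question is what differed after injury in young valves, and among these genes Spp1 was higher and Ibsp lower after injury by more than 3-fold, with neither past the thresholds. A gene counted as called, and is said to have risen or fallen, at an adjusted p under 0.1 with a fold over 2 in edgeR's quasi-likelihood test. By that rule 0 of the 10 genes were called, beside 0.418% of all genes tested. At an unadjusted p under 0.05 there were 6, against 9.19% of all genes. DESeq2 called 2 (Ibsp and Spp1), limma-voom 0, and limma-voom with library quality weights the same 2. Injured and sham values did not overlap in 6 of the 10, beside 14.6% of all genes. Of these, 3 were higher (Runx2, Enpp1 and Spp1, beside 9.54%) and 3 lower (Ibsp, Abcc6 and Comp, beside 5.07%). The median log2 fold change was 0.06 over the 10 genes and 0.01 over all genes.

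Among the drivers, Runx2 (chromosome 17, 44495987 to 44814797, minus strand) stood at 6.32, 6.63 and 7.33 CPM in young sham valves and at 8.75, 7.56 and 7.67 CPM in young injured valves. The groups did not overlap, but the log2 fold change was small, at 0.24 ± 0.20 (SE), with an adjusted p of 0.778. Its exons overlap those of the antisense gene Runx2os1, and whether the counting used strand is not given in the sources used here. Sp7, which acts downstream of Runx2, gave 7.42, 3.53 and 1.62 CPM in sham against 1.67, 1.88 and 0.723 CPM in injured valves. The sham spread was wide and the lowest sham valve lay within the injured range, and the log2 fold change of -1.55 ± 0.55 had an adjusted p of 0.386. Without young sham 1, the highest library, it was -0.85 (adjusted p = 0.680). Alpl gave 22.9, 19.5 and 29.9 CPM in sham and 12.2, 23.0 and 70.2 CPM in injured valves, so that the injured group held both the lowest and the highest value. The library with 70.2 CPM, young injured 3, also had the highest cardiomyocyte marker sum of all libraries, 36311 CPM. The log2 fold change of Alpl was 0.54 ± 0.49 (adjusted p = 0.812). It was 0.86 with the mean log2 CPM of the cardiomyocyte markers, not their sum, as a covariate (adjusted p = 0.372).

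Ibsp, a marker of mature osteoblasts that can seed mineral, had counts of 362, 261 and 162 in young sham and 23, 133 and 72 in young injured libraries. These correspond to 10.5, 8.01 and 6.39 CPM against 0.621, 3.78 and 2.26 CPM. Every injured valve lay below every sham valve, and the difference was 3.74-fold, a log2 fold change of -1.90 ± 0.52 (adjusted p = 0.207 in edgeR's test). DESeq2 gave an adjusted p of 0.0149 and limma-voom with library quality weights 0.0491 for the same genes and libraries, and over all alternatives the adjusted p ranged from 0.0149 to 0.439.

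Spp1, which both marks osteogenic cells and blocks crystal growth, and which macrophages also make, stood at 91.6, 62.2 and 54.6 CPM in young sham valves. In young injured valves it stood at 108, 352 and 285 CPM. All injured values lay above all sham values, with young injured 1 close to the sham range. The difference was 3.58-fold, a log2 fold change of 1.84 ± 0.46 (adjusted p = 0.161). Without young injured 1 it was 2.20 on the log2 scale and passed the thresholds (adjusted p = 0.0581), and without young injured 2, the highest library, it was 1.49 and did not (adjusted p = 0.583). Of 22 alternatives 5 passed, and the adjusted p ranged from 0.00269 with DESeq2 to 0.583. The 12 macrophage markers summed to 825, 1387 and 1005 CPM in young injured 1, 2 and 3, and to 767 to 1009 CPM in young sham valves. The valve interstitial and fibroblast markers, which include Col1a1 and Col3a1, summed to 25172 to 32142 CPM in young injured and 18381 to 22137 CPM in young sham valves. Spp1 and both sums were therefore highest in young injured 2 among young valves, and the part of either cell type in the Spp1 difference was not tested. Spp1 overlaps a predicted gene on its strand, so a share of its reads may have been assigned there.

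**Figure D2:**
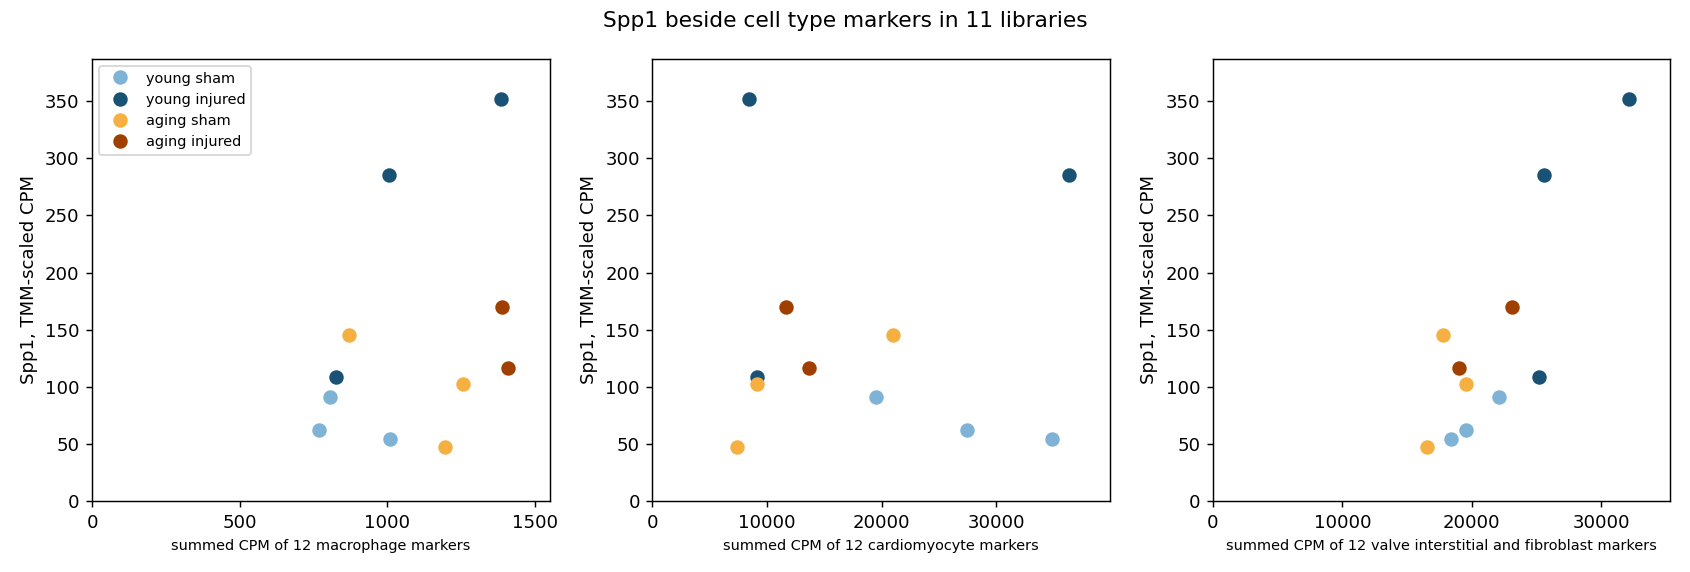
Spp1 (TMM-scaled CPM) against the summed CPM of macrophage, cardiomyocyte and valve interstitial and fibroblast markers, 1 point per library coloured by group. Young injured 2 has the highest Spp1 (352 CPM), with a macrophage sum of 1387 CPM, while both aging injured libraries have sums as high with Spp1 at 116 and 170 CPM.

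The other inhibitors apart from Abcc6 differed less in young valves. Mgp, at 2247, 1985 and 1867 CPM in sham and 3507, 3269 and 1931 CPM in injured valves, was higher in 2 of 3 injured valves than in any sham valve. Its log2 fold change was 0.51 ± 0.22 (adjusted p = 0.495), and 0.20 with the cardiomyocyte covariate (adjusted p = 0.758). Enpp1 gave 89.5, 82.9 and 91.5 CPM against 96.8, 122 and 119 CPM, without overlap, and a log2 fold change of 0.36 ± 0.15 (adjusted p = 0.475). Tnfrsf11b gave 64.7, 53.0 and 54.0 CPM against 42.4, 61.4 and 53.0 CPM, which overlapped, with a 95% interval of the log2 fold change from -0.49 to 0.23. Abcc6, an ABC transporter at chromosome 7, 45976380 to 46030302, minus strand, was scarce, with counts of 101, 24 and 26 in sham and 22, 7 and 7 in injured libraries. On the CPM scale, 2.93, 0.736 and 1.03 stood against 0.594, 0.199 and 0.220, without overlap, and the log2 fold change of -2.20 ± 0.82 had an adjusted p of 0.424. Without young sham 1, the highest library, it was -1.37 (adjusted p = 0.943).

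Comp, the cartilage protein at chromosome 8, 70373548 to 70382065, plus strand, stood at 1300, 1348 and 1327 CPM in young sham valves. Injured valves gave 480, 1096 and 1029 CPM. All were lower than the sham valves, with young injured 1 far below the other two, and the log2 fold change was -0.61 ± 0.36 (adjusted p = 0.670), and -0.36 with the cardiomyocyte covariate (adjusted p = 0.865).

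**Figure D3:**
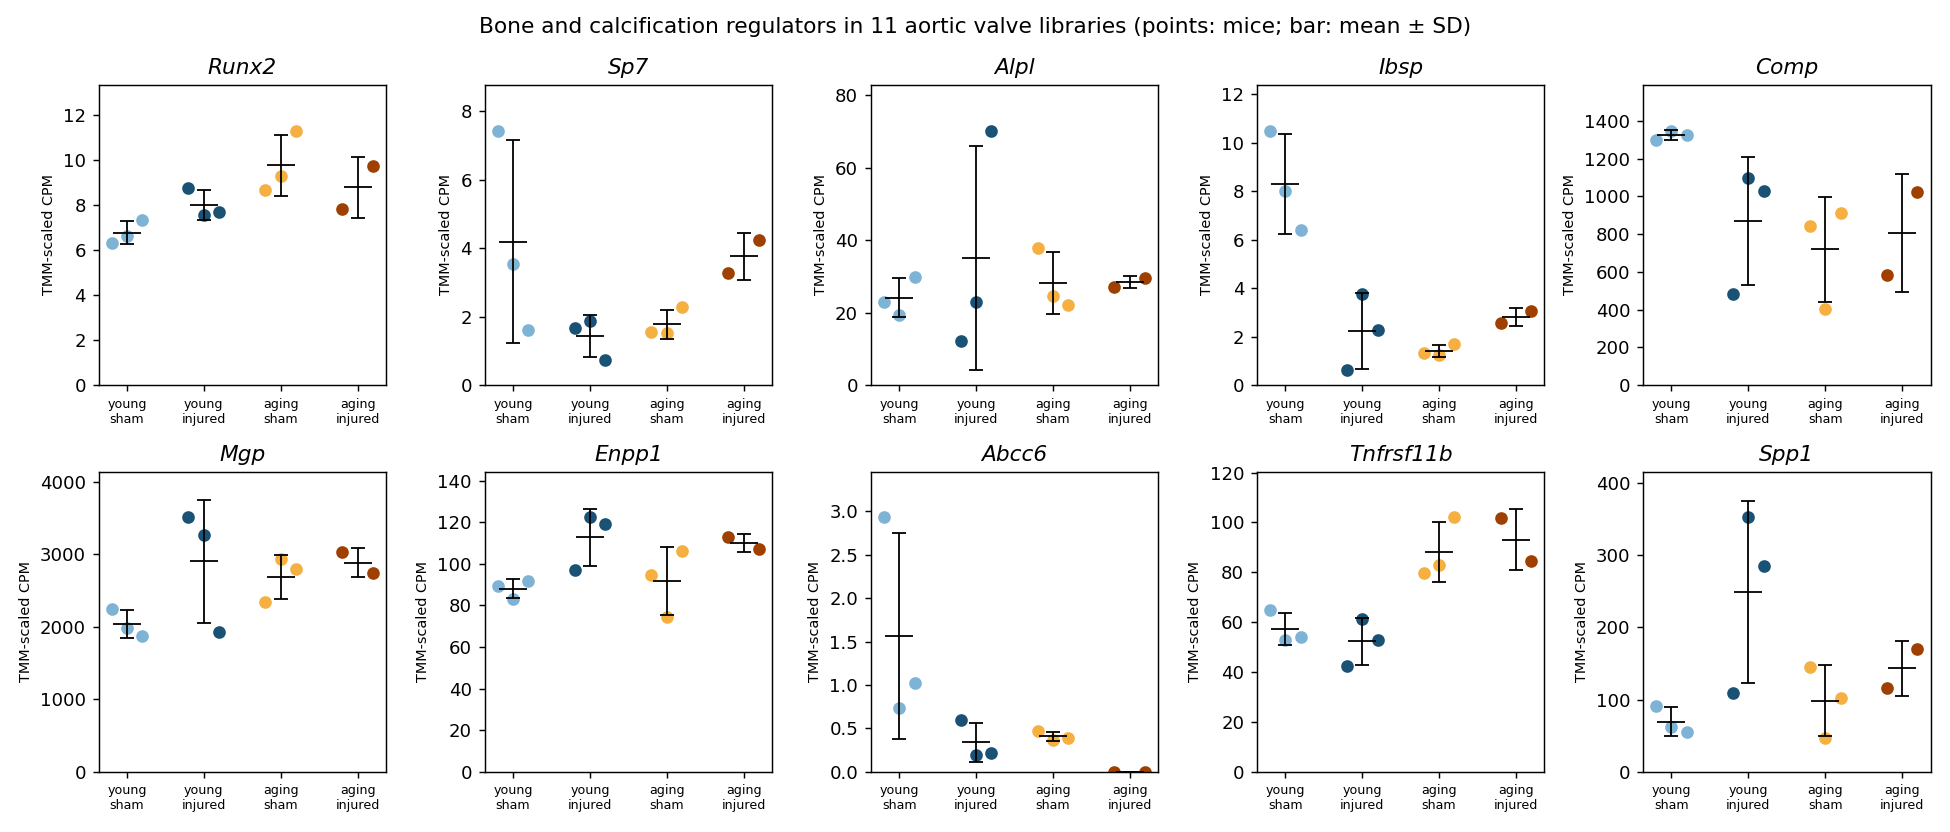
TMM-scaled CPM of each of the 10 genes in every library, with groups on the horizontal axis, a line at the group mean and error bars of 1 SD. Young injured valves lie above young sham valves for Spp1 (108 to 352 against 54.6 to 91.6) and below them for Ibsp (0.621 to 3.78 against 6.39 to 10.5).

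In injured aging valves Sp7, Ibsp and Enpp1 were higher than in sham valves and Abcc6 was not detected, while the other 6 genes overlapped. edgeR called 0 of the 10 genes, beside 0% of all genes tested, and 1 (Abcc6) had an unadjusted p under 0.05, against 8.83% of all genes. DESeq2 called 1, also Abcc6, and limma-voom 0 with or without quality weights. Values did not overlap for 4 genes, beside 27.8% of all genes, with 3 higher (11.1% of all genes) and 1 lower (16.7%). The median log2 fold change was 0.13 over the 10 genes and -0.01 over all genes. Markers of other cell types differed too: 9 of 9 adipocyte markers tested were higher after injury, 5 without overlap, with sums of 225 to 660 CPM against 96.8 to 188 CPM. All 10 mesothelial markers were lower, 8 without overlap, with sums of 85.9 to 98.2 CPM against 141 to 260 CPM, and the part of either in the values that follow was not tested.

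Ibsp gave 1.33, 1.23 and 1.70 CPM in aging sham and 2.56 and 3.07 CPM in aging injured valves, from counts of 48, 40, 48, 72 and 105. Both injured values lay above the sham values, the reverse of the order in young valves. The log2 fold change was 0.99 ± 0.57 (adjusted p = 0.664). Sp7 gave 1.55, 1.51 and 2.26 CPM against 3.27 and 4.24 CPM, also without overlap, at 1.08 ± 0.60 (adjusted p = 0.645). Both aging injured libraries belong to the set with fewer genes detected, as does young sham 1, which had the highest Sp7 and Ibsp of all libraries. With a term for that set, the log2 fold change was 0.44 for Ibsp (adjusted p = 0.898) and turned to -0.44 for Sp7 (adjusted p = 0.875).

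Enpp1 was 94.8, 74.2 and 106 CPM in aging sham and 113 and 107 CPM in aging injured valves, with a log2 fold change of 0.26 ± 0.16 (adjusted p = 0.705). The highest sham and lowest injured values nearly touched, and in the deposited RPKM values the groups overlapped. Spp1 gave 145, 47.3 and 102 CPM against 116 and 170 CPM, and the injured values lay partly within the sham range (0.54 ± 0.49, adjusted p = 0.830, and -0.11 with a term for the set with fewer genes detected). The macrophage markers were at 1388 to 1410 CPM in aging injured and 869 to 1257 CPM in aging sham valves, so this sum was higher without overlap while Spp1 overlapped. For Runx2, Alpl, Mgp, Tnfrsf11b and Comp, the log2 fold changes lay between -0.15 and 0.16 and the groups overlapped. The 95% interval for Mgp ran from -0.43 to 0.63 and that for Alpl from -1.20 to 1.21, so differences within those ranges were not excluded. The sign for Alpl turned when mitochondrial genes were left out.

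Abcc6 had counts of 17, 12 and 11 in aging sham libraries and 0 and 0 in aging injured libraries. Against a floor of 3 counts over the injured group, it was at least 8.58-fold lower, a bound that covers counting error only. The adjusted p was 0.326 in edgeR's test and 0.0348 with DESeq2. Both aging injured libraries belong to the set with fewer genes detected. With a term for that set, which rests on young sham 1, the adjusted p in edgeR's test was 0.122. Averaged over both ages, Abcc6 fell with injury (adjusted p = 0.0739, lower without overlap at both ages), the only one of the 10 genes that passed, against 0.594% of all genes called in either direction and 0.16% called lower. Unadjusted p under 0.05 held for 3 of the 10 genes, Abcc6, Spp1 and Enpp1, against 11.5% of all genes.

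The Abcc6 call was not stable. Of 21 alternatives, 9 kept it and 12 lost it, and the adjusted p was 0.00123 with DESeq2, 0.160 with limma-voom and 0.407 with quality weights. Leaving out 1 library lost it in 8 of 11 cases: the adjusted p became 0.100 or 0.111 when young sham 1 or 2 was dropped, and 0.188 or 0.100 when young injured 2 or 3 was dropped. Dropping aging sham 1, 2 or 3 gave 0.191, 0.185 or 0.170, and dropping aging injured 2 gave 0.117. With sex as a term, chosen after the data were seen, it was 0.156. With a term for the 3 libraries that detect fewer genes it was 0.0537.

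For the other genes the average over age gave 1.19 ± 0.33 on the log2 scale for Spp1 (adjusted p = 0.177, with 2 of 21 alternatives passing over a range of 0.0137 to 0.400) and 0.31 ± 0.11 for Enpp1 (adjusted p = 0.302). Without young injured 1 the Spp1 value was 1.37 (adjusted p = 0.0806), and without young injured 2 it was 1.02 (adjusted p = 0.379). Enpp1, which makes the inhibitor pyrophosphate, was higher without overlap at both ages, as 2.41% of all genes were, and Abcc6 lower, as 0.966% were. For Enpp1 in aging valves the gap was narrow, 106 CPM in aging sham 3 against 107 CPM in aging injured 2. In the deposited RPKM values these libraries stood in the reverse order (11.6 and 11.3), so the aging groups overlapped. No other gene of the 10 than Enpp1 and Abcc6 was separated in the same direction at both ages, against 3.38% of all genes.

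Age alone was compared in sham valves, where Ibsp was lower by more than 5-fold and Tnfrsf11b, Runx2 and Mgp were higher. This comparison shares its young sham libraries with the injury comparison in young valves, so the values are set side by side and not counted as separate support. edgeR called 0 of the 10 genes, beside 0.0258% of all genes tested. An unadjusted p under 0.05 held for 6, against 9.19%. DESeq2 and limma-voom with quality weights each called 1, Ibsp, and limma-voom 0. Values did not overlap in 6 of the 10, beside 20.9% of all genes, with 3 higher (Runx2, Mgp and Tnfrsf11b, beside 11.8%) and 3 lower (Ibsp, Abcc6 and Comp, beside 9.08%). The median log2 fold change was 0.14, against 0.02 over all genes. All 12 cardiomyocyte markers were lower in aging sham valves, 5 without overlap, with sums of 7381 to 20985 CPM against 19535 to 34869 CPM. All 10 mesothelial markers were higher, 9 without overlap, with sums of 141 to 260 CPM against 23.4 to 78.0 CPM, and their part in the values that follow was not tested.

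Ibsp, which did not pass the thresholds, showed the largest fold difference of the 10, from 10.5, 8.01 and 6.39 CPM in young sham to 1.33, 1.23 and 1.70 CPM in aging sham valves. Every aging sham valve lay below every young one, 5.84-fold lower in the fit, at -2.55 ± 0.54 on the log2 scale (adjusted p = 0.232). Of 22 alternatives 4 passed: DESeq2 (adjusted p = 0.000863), limma-voom with quality weights (0.0117), a fit of these 2 groups alone (0.0636) and the fit without young injured 1 (0.0847). Among those that did not, the adjusted p was 0.395 with a term for the 3 libraries that detect fewer genes, 0.618 with the cardiomyocyte covariate and 0.983 without aging sham 2, while the log2 fold change stayed between -2.70 and -2.28 in all 22. The chondrocyte markers summed to 242 to 318 CPM in young sham and 170 to 265 CPM in aging sham valves. Their defining genes Sox9, Acan and Col2a1 were detected in every library, and their part in the Ibsp difference was not tested.

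Osteoprotegerin, the product of Tnfrsf11b, intercepts RANK ligand. Its transcript stood at 64.7, 53.0 and 54.0 CPM in young sham and 79.7, 82.8 and 102 CPM in aging sham valves. No values overlapped, at a log2 fold change of 0.62 ± 0.16 (adjusted p = 0.339). Among injured valves it stood at 42.4, 61.4 and 53.0 CPM in young and 102 and 84.4 CPM in aging mice, again without overlap. That difference was 0.83 ± 0.18 (adjusted p = 0.148). All 5 aging valves lay above all 6 young valves, and the share of all genes separated in this way was not computed. Of all genes, 11.8% were higher with age without overlap in sham valves and 9.89% in injured valves. Smooth muscle markers summed to 19107 to 25918 CPM in aging valves and 7659 to 19930 CPM in young valves. Smooth muscle makes osteoprotegerin in arteries, and its part in this difference was not tested.

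Runx2 was 6.32 to 7.33 CPM in young sham and 8.67, 9.28 and 11.3 CPM in aging sham valves, without overlap (0.53 ± 0.20, adjusted p = 0.485). Mgp gave 2341, 2931 and 2789 CPM in aging sham against 1867 to 2247 CPM in young sham valves, also without overlap (0.40 ± 0.22, adjusted p = 0.607). With the mean log2 CPM of the cardiomyocyte markers as a covariate the Mgp difference was 0.00052 on the log2 scale and that of Runx2 0.49. Comp was 845, 400 and 914 CPM in aging sham against 1300 to 1348 CPM in young sham valves (-0.88 ± 0.36, adjusted p = 0.513, and -0.53 with the covariate), and Abcc6 0.470, 0.370 and 0.389 against 0.736 to 2.93 CPM (-1.92 ± 0.81, adjusted p = 0.525), both lower without overlap. Without young sham 1 the Abcc6 difference was -1.09. Sp7 gave -1.24 ± 0.55 with overlap (adjusted p = 0.531), and -0.54 without young sham 1 (adjusted p = 0.807). With the cardiomyocyte covariate Alpl moved from 0.23 to 1.14 (adjusted p = 0.783) and Spp1 from 0.50 to 0.79. For Spp1 and Alpl the 95% intervals ran from -0.48 to 1.48 and from -0.85 to 1.31 on the log2 scale, and for Enpp1 from -0.26 to 0.38.

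Among injured valves, age gave 0 of 10 genes called by edgeR, beside 0.062% of all genes tested, and 3 with an unadjusted p under 0.05 (Tnfrsf11b, Sp7 and Abcc6), against 12.5%. DESeq2 called 1, Abcc6 (adjusted p = 0.0288), and limma-voom 0 with or without quality weights. Values did not overlap for those 3 genes, beside 24.4% of all genes, higher for 2 (9.89%) and lower for Abcc6 (14.5%). Abcc6, with 36 counts over the young injured libraries and 0 over the aging injured ones, was at least 7.19-fold lower, a bound that covers counting error only. Both aging injured libraries and no young injured library belong to the set with fewer genes detected. Age and the set can be told apart here only by a term that rests on young sham 1. Sp7 was 0.723 to 1.88 CPM in young and 3.27 and 4.24 CPM in aging injured valves (1.39 ± 0.60, adjusted p = 0.381). With a term for the 3 libraries that detect fewer genes, this turned to -0.13 (adjusted p = 0.987). Ibsp gave 0.34 ± 0.57 and Spp1 -0.80 ± 0.51, both with overlap.

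**Figure D4:**
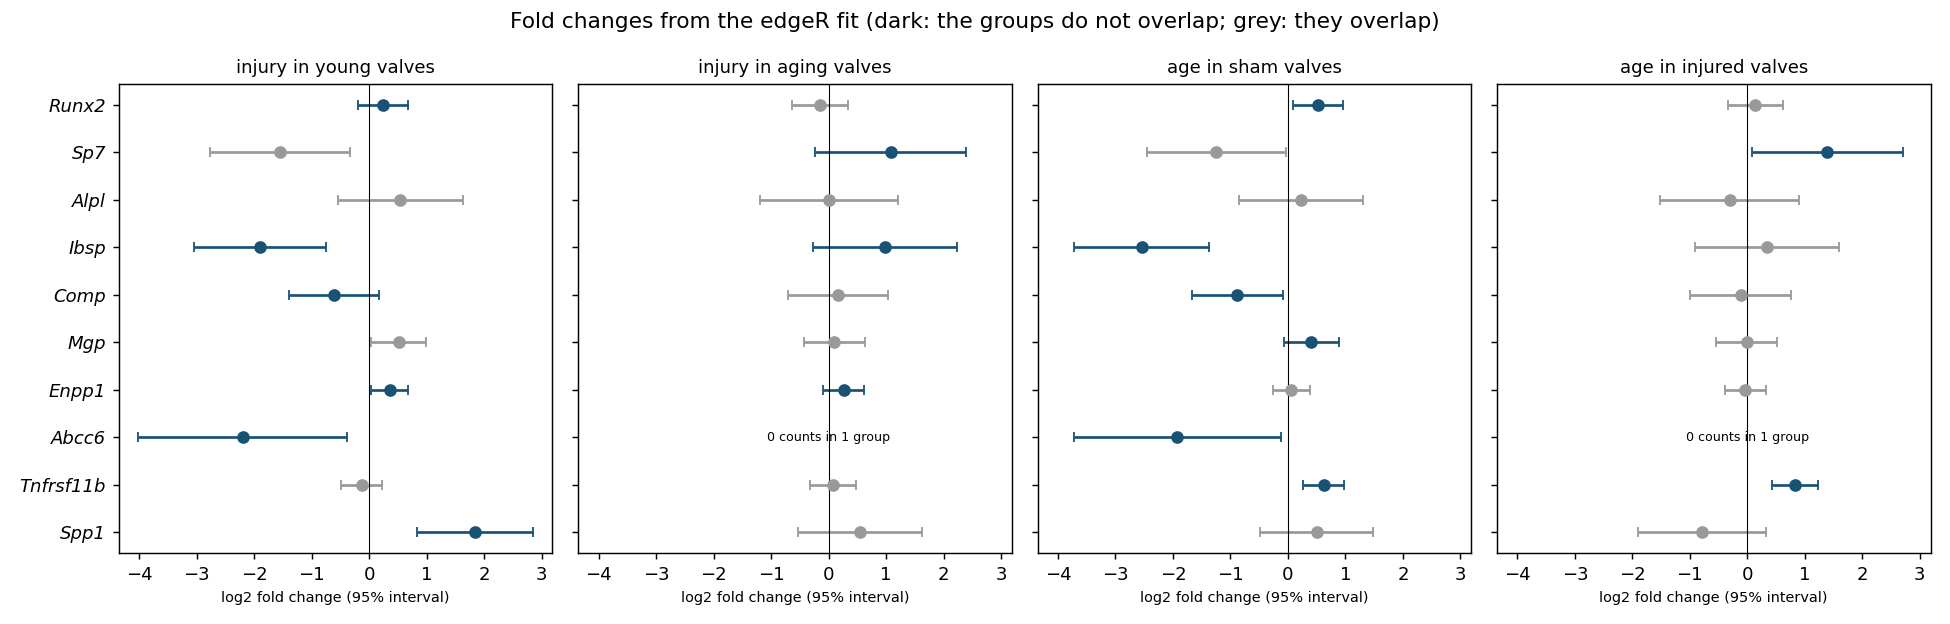
Log2 fold changes of the 10 genes with 95% intervals, 1 panel per comparison. Ibsp lies at -1.90 for injury in young valves and at 0.99 in aging valves, and Spp1 at 1.84 and 0.54. Dark points mark groups that do not overlap and grey points groups that do, and Abcc6 is not drawn where aging injured valves, counted at 0, are compared.

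Whether injury acted differently at the ages was tested as an interaction, and edgeR called 0 of the 10 genes, beside 0% of all genes tested. Unadjusted p under 0.05 held for 3, Ibsp, Sp7 and Abcc6, against 7.86% of all genes. DESeq2 called 1 and limma-voom 0 with or without quality weights. For Ibsp the interaction was 2.89 ± 0.77 on the log2 scale (adjusted p = 0.450, and 0.0520 with DESeq2). For Sp7 it was 2.64 ± 0.81 (adjusted p = 0.501). With a term for the 3 libraries that detect fewer genes, the values were 2.14 for Ibsp (adjusted p = 0.604) and 0.41 for Sp7 (adjusted p = 0.934). Spp1 gave -1.30 ± 0.67 (adjusted p = 0.700), so that its larger difference in young valves was not shown to differ from that in aging valves.

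Drivers were set against inhibitors by the mean log2 CPM of Runx2, Sp7, Alpl and Ibsp minus that of Mgp, Enpp1, Abcc6, Tnfrsf11b and Spp1, with a prior count of 2. Young sham valves gave -2.97, -2.77 and -3.0, and young injured valves -4.24, -3.63 and -3.49. Aging sham valves gave -3.69, -3.47 and -3.57, and aging injured valves -2.86 and -2.61. Young injured and aging sham valves were thus all lower than young sham and aging injured valves. Group means were -2.91 ± 0.13 (SD, n = 3), -3.78 ± 0.40 (n = 3), -3.58 ± 0.11 (n = 3) and -2.74 ± 0.18 (n = 2), in the same order. Each side is a mean, so within a side scarce genes weigh as much as abundant ones, Abcc6 as much as Mgp. Abcc6 was counted at 0 in both aging injured libraries, so its term there was set by the prior count. With a prior count of 0.5 the aging injured mean was -2.35, while aging sham stayed at -3.57. The size of the aging difference in the score therefore depends on that floor value, and a score without Abcc6 was not computed. With fewer drivers than inhibitors, each driver, the scarce Ibsp and Sp7 among them, weighs more than each inhibitor. With Spp1 placed among the drivers, since it has both roles, the means were -2.28, -2.25, -2.62 and -1.49, and the young groups no longer separated. No test was made of the score, and it was not computed with a term for the set with fewer genes detected. Both aging injured libraries and young sham 1 belong to that set, so in aging valves injury and the set cannot be told apart in the score.

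**Figure D5:**
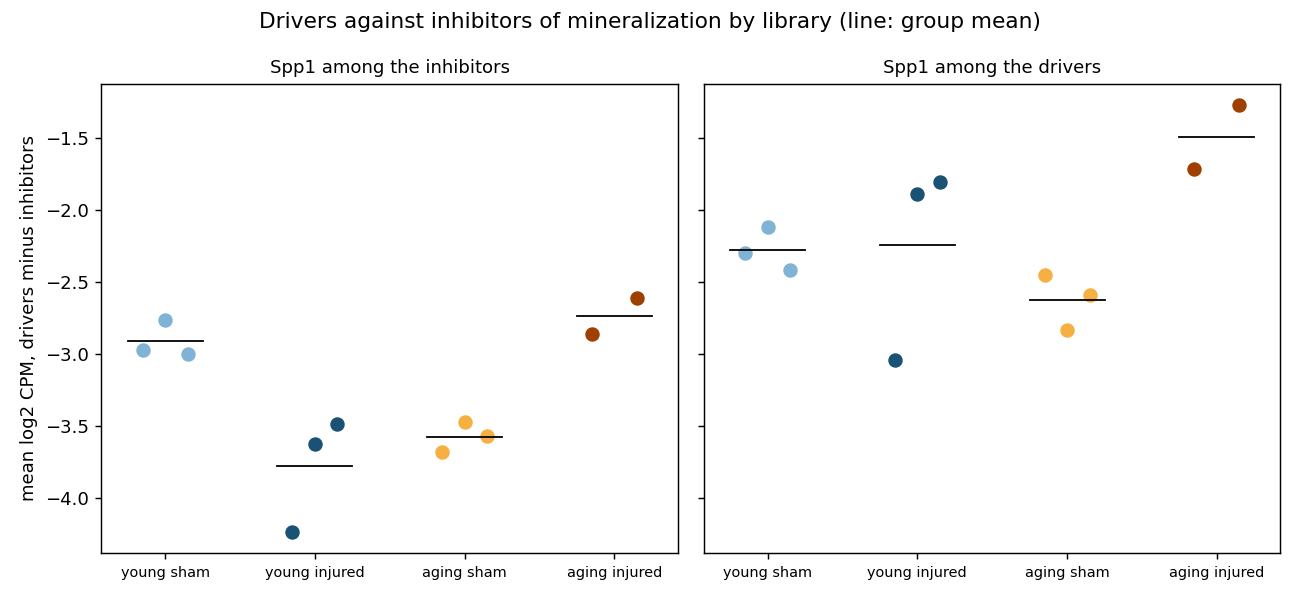
Mean log2 CPM of drivers minus that of inhibitors in each library, with a line at the group mean. With Spp1 among the inhibitors (left panel) young injured valves lie from -4.24 to -3.49 and young sham valves from -3.0 to -2.77, and with Spp1 among the drivers (right panel) the young groups overlap.

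The genes whose levels followed each member most closely over the 11 libraries were found by Pearson correlation of log2 CPM. This is a description over libraries that differ in tissue makeup and in genes detected, and the part of either was not tested. Sp7 was closest to Dlx5 (r = 0.93), a homeobox factor of the osteoblast lineage. Comp was closest to Cilp2 (0.95) and Fmod (0.95), both of cartilage and tendon matrix. Tnfrsf11b was closest to Il18r1 (0.96) and Gpnmb (0.95), Spp1 to Smim3 (0.91) and Srprb (0.90), and Mgp to Gdf11 (0.97) and Nadk (0.96). The closest genes to Runx2 were Cnp (0.90) and Sept6 (0.89), and to Sp7, after Dlx5, Arid1a (0.89). For Alpl they were Irx5 (0.90) and Pdlim5 (0.85), for Ibsp Mlxip (0.90), for Enpp1 Aurka (0.90) and Gfra1 (0.89), and for Abcc6 Mtg2 (0.97) and Qprt (0.96). Among the members themselves the highest correlations were those of Enpp1 with Spp1 (r = 0.87) and of Ibsp with Comp (0.82). The strongest opposite pair was Runx2 and Ibsp (r = -0.72).

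Around these genes, 66 further genes of bone, cartilage, phosphate, vitamin K and osteoclast pathways were examined in 5 lists, of which 65 were tested. edgeR called 0 of them in each of the 6 comparisons, with unadjusted p under 0.05 for 17 after injury in young valves, 3 in aging valves, 12 over both ages, 14 with age in sham valves, 7 with age in injured valves and 1 for the interaction. The shares of all genes tested were 9.19%, 8.83%, 11.5%, 9.19%, 12.5% and 7.86% in that order. DESeq2 called 3, 0, 2, 3, 2 and 0 of the list genes in the same order, and 268, 329, 402, 200, 599 and 174 of all genes. limma-voom called 0 of the list genes in each. With quality weights it called 1, 0, 0, 6, 0 and 0 of them, and 376, 0, 60, 811, 1 and 0 of all genes. The lists' directions are given by counts, and nothing is read from them as particular to a list.

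Of 19 osteogenic and chondrogenic transcription factors, 10 had positive and 9 negative log2 fold changes after injury in young valves, with a median of 0.08 against 0.01 over all genes. Hey1, a Notch target that restrains Runx2, stood at 19.4, 15.3 and 18.4 CPM in young sham and 13.3, 8.89 and 11.7 CPM in young injured valves. The injured values were all lower (-0.65 ± 0.20, adjusted p = 0.270). Dlx3, a homeobox gene of bone and hair, had counts of 5, 4 and 10 in young sham, 25, 25 and 8 in young injured, 18, 25 and 7 in aging sham and 47 and 63 in aging injured libraries (1.55 ± 0.56 over both ages, adjusted p = 0.313).

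Of 19 bone and cartilage matrix genes tested, 14 were lower with age in sham valves, 8 of them without overlap, beside 9.08% of all genes, and the median was -0.44 against 0.02. Col1a1, the main collagen of bone and of scar, was 1.94-fold higher after injury over both ages (0.96 ± 0.20, adjusted p = 0.0835), just below the fold of 2. It stood at 1829, 1550 and 1786 CPM in young sham, 2750, 4295 and 3605 CPM in young injured, 1259, 1127 and 1433 CPM in aging sham, and 1423 and 3221 CPM in aging injured valves. Sparc, a collagen-binding protein of bone, was 1.48-fold higher (0.57 ± 0.12, adjusted p = 0.0880). Chad, a cartilage protein named here after its values were seen, was like Comp lower in every young injured valve, with 1189, 995 and 1238 CPM in young sham and 237, 554 and 621 CPM in young injured valves (-1.28 ± 0.42, adjusted p = 0.323).

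Of 13 genes of phosphate and pyrophosphate metabolism, 8 were positive after injury in young valves and 7 with age in sham valves. Smpd3, a sphingomyelinase needed for bone mineral, was 8.61, 8.10 and 8.24 CPM in young sham and 15.2, 24.8 and 18.3 CPM in aging sham valves (1.22 ± 0.24, adjusted p = 0.216). Enpp2, which makes lysophosphatidic acid and has been linked to valve calcification, was 66.3, 60.2 and 55.2 CPM in young sham and 89.8, 97.8 and 133 CPM in aging sham valves (0.82 ± 0.23, adjusted p = 0.375). Neither gene overlapped between the ages.

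The carboxylation list held Ggcx, Vkorc1 and Vkorc1l1, which serve the vitamin K-dependent carboxylation of Mgp, and Gas6, which is itself a substrate of it. All 4 had positive log2 fold changes after injury at both ages and with age in sham valves, with medians of 0.29, 0.16 and 0.34. Vkorc1, which recycles vitamin K, was 35.1, 33.0 and 29.4 CPM in young sham and 48.0, 47.0 and 45.3 CPM in young injured valves, without overlap (0.53 ± 0.11, adjusted p = 0.100). Ggcx, the carboxylase itself, gave 0.33 ± 0.11 over both ages (adjusted p = 0.252). In the RANK ligand and osteoclast list, 7 of 10 were positive after injury in young valves and 8 of 10 in aging valves. Acp5, the osteoclast and macrophage acid phosphatase, was 2.15, 2.15 and 1.93 CPM in young sham and 1.84, 5.77 and 5.69 CPM in young injured valves, and 3.15, 4.66 and 3.57 CPM in aging sham and 4.23 and 12.9 CPM in aging injured valves (1.13 ± 0.36 over both ages, adjusted p = 0.242). Ocstamp, needed for osteoclast fusion, was near 0, with counts of 0, 0 and 1 in young sham and 9, 54 and 3 in young injured libraries, and 0, 7 and 8 in aging sham and 23 and 41 in aging injured libraries (adjusted p = 0.191 over both ages).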

How the data were processed

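RNA from frozen aortic valves was sequenced in 11 libraries, 1 mouse each. The submitters' processing notes name TopHat2 2.1.0 and mm10, while how reads were counted, with or without strand, and on which annotation is not given in the sources used here. The authors deposited raw counts for 46983 genes and, separately, RPKM values for 13526. Among library columns, 1 matched no label and was not used.

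From the counts, edgeR 4.0.16 (R 4.3.3) was run with TMM scaling and filterByExpr (minimum count 10), with 4 group means in 1 fit. Adjustment was Benjamini-Hochberg over 19366 genes, with the series' own thresholds, adjusted p under 0.1 and fold over 2. SE was derived from the fold change and its F statistic, as absolute log2 fold change over root F. The scripts were tested on simulated data. Alternatives used DESeq2 1.42.0, limma 3.58.1, other scalings, filters and terms, and left out each library in turn. The sex term was added after the data were seen. The members and lists were chosen with earlier results of these data known.

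Named were the 10 members, pathway genes that were called, the 2 pathway genes per list with the smallest p over the injury and sham age comparisons, and the 2 genes closest to each member by correlation, of which 1 is not reported here. The 10 pairs of libraries within groups differed beyond sampling noise, at a chi-square per degree of freedom of 20.9 to 228.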

Additional observations from a re-analysis of the deposited data

Results flagged for a closer look

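Ibsp is the gene to look at again. All 3 young injured valves (0.621, 3.78 and 2.26 CPM) lay below all young sham valves (6.39 to 10.5 CPM), while both aging injured valves (2.56 and 3.07 CPM) lay above all aging sham valves (1.23 to 1.70 CPM). Of all genes, 5.07% were lower without overlap in young valves and 11.1% higher in aging valves. The share with both was not computed, and 7.86% had an unadjusted p under 0.05 for the interaction in edgeR's test. The injury by age interaction was 2.89 on the log2 scale and did not pass in edgeR's test (adjusted p = 0.450). Both aging injured libraries and young sham 1 belong to the set with fewer genes detected, and with a term for that set the interaction was 2.14 (adjusted p = 0.604). No group held 4 libraries, so single libraries were not tested as outliers.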

How the results depend on the processing

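For the 22 results of single members with an unadjusted p under 0.05, 477 alternatives were computed. Of these, 448 kept direction and side of the thresholds, 16 passed where the main analysis did not, 12, all of Abcc6 with injury over both ages, no longer passed, and 1 reversed. The reversal was Sp7 with age in injured valves, at -0.13 with a term for the 3 libraries with late label numbers. Of 38 other member results, signs changed in 56 of 822 alternatives, 2 of them under another scaling (Alpl after injury in aging valves and Mgp with age in injured valves). The cause was not tested, apart from fewer libraries or more genes where the alternative is built so.

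Members called after injury in young valves (0 in the main analysis) numbered 1 with no filter, 2 with DESeq2, 2 with quality weights, 1 with the sex term, and 0 to 1 leaving out a library. In aging valves DESeq2 called 1, and leaving out a library 0. Over both ages (1 in the main analysis) there were 2 with DESeq2, 0 with limma-voom, 0 with quality weights, 0 with the sex term and 0 to 2 leaving out a library. With age in sham valves (0) DESeq2, quality weights and the fit of 2 groups alone gave 1 each, and leaving out a library 0 to 1. DESeq2 gave 1 with age in injured valves and 1 for the interaction, and leaving out a library 0 in both.

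Of all genes, 81 were called after injury in young valves, against 268 with DESeq2, 376 with quality weights, 11 with 2 groups fitted, 43 with the term for 3 libraries, and 16 (without young injured 2) to 447 (without young injured 3). In aging valves 0 were called, against 1 with no filter, 329 with DESeq2, 3 with the term for 3 libraries and 0 to 261 (without aging injured 1). Over both ages 115 became 402 with DESeq2, 73 with limma-voom, 60 with quality weights, 288 with the term for 3 libraries, 73 with the sex term and 38 (without young injured 2) to 284 (without aging injured 1). With age in sham valves 5 became 14 with no filter, 200 with DESeq2, 2 with limma-voom, 811 with quality weights, 13 with 2 groups, 1 with the term for 3 libraries, 2 with a cardiomyocyte covariate, 3 with the sex term and 1 to 10 leaving out a library. With age in injured valves 12 became 38 with no filter, 599 with DESeq2, 1 with quality weights, 0 with 2 groups, 104 with the term for 3 libraries, 42 with the cardiomyocyte covariate, 7 with the sex term and 3 (without young injured 1) to 429 (without aging injured 1). For the interaction 0 became 174 with DESeq2 and stayed 0 leaving out a library.

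With the replicate numbers in the sample titles as a block, members called over both ages went from 1 to 0 (Abcc6, adjusted p = 0.110). All genes called went from 115 to 60 over both ages and from 12 to 4 with age in injured valves. Deviations from group means of same-numbered libraries correlated at -0.13 to 0.25 over 15 pairs, 1 of them above 0.1. Those of other numbers correlated at -0.23 to 0.26 over 30 pairs, 3 of them above 0.1. These values cannot decide whether the numbers pair the samples, because deviations within groups this small are tied to one another.

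Drivers minus inhibitors moved to -2.35 in aging injured valves with a prior count of 0.5, and with Spp1 among the drivers to -2.28 in young sham, -2.25 in young injured, -2.62 in aging sham and -1.49 in aging injured valves. Fits of 2 groups alone could not be made for the average over age and the interaction, which need all 4. With 2 to 3 mice per group and Abcc6 at 0 to 101 counts, differences in the scarce genes are not detectable unless large.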
